A study of Mus musculus with 6 samples.

Results

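Red blood cell genes were measured in the lungs of mice given lipopolysaccharide (LPS), a bacterial endotoxin, and then saline or recombinant human thrombomodulin (rhTM). The set held 8 genes chosen by function: Slc4a1, Alas2, Ahsp, Klf1, Hemgn, Ermap, Rhag and Epb42. Probes were found by matching the accession on the array to a RefSeq gene table, and the probe with the highest mean signal over the 6 arrays stood for its gene. Of the 8 genes, 7 had a matched probe, among 22911 genes matched in all, and Ahsp is not analysed here. For a test, the probe had to stand well above background throughout 1 of the groups at least, a condition met by 5 of the 7 and by 16362 genes in all.

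All animals were male C57BL6 mice aged 10 weeks. Each was starved for 16 h and received LPS at 20 mg/kg into the peritoneum. The 3 saline-treated mice were given saline at 3 and 24 h, and the 3 rhTM-treated mice were given rhTM, a soluble human protein, at the same times, at 30 mg/kg by the study's methods. Lungs were taken 30 h after LPS, and total RNA of each lung was hybridised to 1 single-colour Agilent array. No mouse without LPS is part of these 6 arrays, so every value describes an endotoxaemic lung. The replicate samples are separate mice by their labels.

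Mature mammalian red cells have no nucleus, and erythroblasts, their precursors, grow in bone marrow and, in stressed mice, in spleen. Reticulocytes, the youngest circulating red cells, still carry RNA, above all for the globins and for the last steps of heme synthesis. Blood left in the vessels of a lung brings their RNA beside that of the tissue. The methods describe killing of the animals by exsanguination and give no account of flushing of the vessels for the array samples. In RNA of whole tissue, fewer red cells and less RNA per cell cannot be told apart.

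The genes fall into 3 roles. Slc4a1 encodes band 3, the anion exchanger that anchors the red cell membrane to its skeleton, Epb42 encodes protein 4.2, a partner of band 3, Rhag encodes the Rh-associated glycoprotein, and Ermap encodes an erythroid membrane-associated protein. Alas2 encodes the erythroid 5-aminolevulinate synthase, which starts heme synthesis in red cell precursors, and Ahsp encodes the chaperone of free alpha-globin. Klf1 is the factor that binds CACCC boxes and drives the adult beta-globin gene, and Hemgn encodes hemogen, a nuclear protein of blood-forming cells. Many erythroid genes are bound by GATA1, whose core motif is an A or T, then GATA, then an A or G.

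The promoters of the genes are shown because they are the stretch in which such motifs are usually sought. The RefSeq promoter table of GRCm38.p6 held 6 of the 8 genes, and the 250 bases before the start of each were searched on both strands. The letters AGATAA were searched as a GATA motif, likewise the letters TGATAA, and the forms ending in G, which are AGATAG together with its relative TGATAG. The letters CCNCNCCC stood for the sites of CACCC factors, and matches were allowed to overlap. A GATA motif stood in all 6 promoters, namely those of Alas2, Klf1, Hemgn, Ermap, Rhag and Epb42, against 26.5% of 32851 promoters in the table. The motif CCNCNCCC stood in 2 of the 6, Alas2 and Hemgn, against 45.9% of all promoters, and both motifs stood together in these 2, against 8.19% of all. A match is a run of letters and not a bound site. Promoters of the 4 tested genes held there follow, 5′ to 3′ along the gene and in lower case, with the matched motif in capitals.
Alas2, chrX:150547167-150547416, plus strand: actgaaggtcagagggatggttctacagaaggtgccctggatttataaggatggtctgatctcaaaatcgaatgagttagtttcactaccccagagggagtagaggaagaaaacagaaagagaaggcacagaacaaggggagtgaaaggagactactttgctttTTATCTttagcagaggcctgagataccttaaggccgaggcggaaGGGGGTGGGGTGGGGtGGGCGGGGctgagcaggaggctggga
Hemgn, chr4:46404184-46404433, minus strand: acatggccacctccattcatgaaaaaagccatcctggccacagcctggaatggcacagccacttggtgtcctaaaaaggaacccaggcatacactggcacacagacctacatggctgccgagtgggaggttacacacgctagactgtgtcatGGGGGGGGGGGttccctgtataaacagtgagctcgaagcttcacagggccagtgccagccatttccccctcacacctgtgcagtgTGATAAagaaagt
Klf1, chr8:84901732-84901981, plus strand: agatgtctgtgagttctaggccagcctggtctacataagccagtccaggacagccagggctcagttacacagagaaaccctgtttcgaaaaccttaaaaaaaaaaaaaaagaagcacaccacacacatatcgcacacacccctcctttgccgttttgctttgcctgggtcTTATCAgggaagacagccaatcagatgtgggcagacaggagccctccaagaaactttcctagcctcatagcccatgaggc
Ermap, chr4:119189996-119190245, minus strand: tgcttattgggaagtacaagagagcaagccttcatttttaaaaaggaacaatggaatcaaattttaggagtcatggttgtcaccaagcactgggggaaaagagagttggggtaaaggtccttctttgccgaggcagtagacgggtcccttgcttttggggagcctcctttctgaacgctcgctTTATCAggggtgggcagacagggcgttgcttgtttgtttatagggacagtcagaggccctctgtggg
In Alas2 the GATA motif begins 86 bases before the start and 4 matches to CCNCNCCC lie nearer to it. In Hemgn the GATA motif begins 13 bases before the start, and its 4 overlapping matches to CCNCNCCC are 1 run of G. The Klf1 motif begins 80 bases and the Ermap motif 67 bases before the start, and neither window holds a match to CCNCNCCC.

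The arrays were alike in depth. Their 75th percentile of signal lay between 675 and 850, and 64.0% to 72.1% of 56605 probes were well above background. The arrays lay on 2 slides, each scanned once. The first saline lung and the third rhTM lung (saline replicate 1, rhTM replicate 3) shared slide 2, and the other 4 arrays shared slide 1. Saline replicate 1 had a spike-in slope of 0.826, against 1.07 to 1.09 on the others. In the authors' value table the columns of saline replicate 1 and rhTM replicate 2 hold each other's scanner values, with 99.82% and 99.85% of probes equal within 0.1%, and which assignment is right is not settled by the labels or the methods. Values below follow the scanner output as assigned in the deposit, with those of the table beside them for some genes and for each erythroid list. All 11 lung-defining markers, among them Ager of alveolar type 1 cells and Pecam1 of endothelium, were well above background on all 6 arrays.

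No erythroid gene of the set passed the test for a difference between rhTM-treated and saline-treated lungs in the scanner output. The exception among the alternative fits was Slc4a1 in the authors' table with slide as a block. That fit has a single rhTM lung, replicate 1, on the slide of the saline lungs, and it is described with the processing. By limma with Benjamini-Hochberg adjustment, 0 of the 5 genes tested passed an adjusted p of 0.05 and 0 had an unadjusted p under it, where 0% of all 16362 genes passed the first (0 genes) and 1.86% (305 genes) the second. None of the 5 passed the methods' thresholds, a fold of 2 or more, or of 0.5 or less, and an unadjusted p under 0.01, which 0.0367% of all genes passed, and none of the 4 tested in the table did, beside 0.367%. Of the 5 genes, 2 were higher and 3 lower in rhTM-treated lungs, with a median log2 difference of -0.02, beside 8293 higher, 8069 lower and a median of 0.00 over all genes. Klf1, among the lower genes, entered the test through the saline group alone, which favours that direction. Levels are given below as multiples, or as a percentage, of the 75th percentile of the array's signals, and a level of 1 gene cannot be set against that of another, since probes differ in brightness.

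Alas2 was well above background on every array. Its level was 3.54, 3.66 and 4.55 times the 75th percentile in saline replicates 1, 2 and 3 and 8.56, 3.46 and 2.51 times in rhTM replicates 1, 2 and 3. The rhTM group held both the highest and the lowest of the 6 lungs, so the groups overlapped on both sides. The mean was 4.84 ± 3.26 (SD, n = 3) against 3.92 ± 0.549 (SD, n = 3) times the 75th percentile. The log2 difference, rhTM minus saline, was 0.11 (SE 0.43, 95% confidence interval -0.91 to 1.14, limma adjusted p = 0.9999), and an exact two-sided permutation test gave p = 1, where 3 arrays against 3 cannot go below 0.10. The sign of the Alas2 difference rested on rhTM replicate 1, without which it was -0.40. It was 0.42 on slide 1 and -0.49 on slide 2. In the table with slide as a block the Alas2 difference was 1.15, and this value too rests on rhTM replicate 1.

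Slc4a1 was dim but well above background on every array. Its level was 15.1%, 10.2% and 12.8% of the 75th percentile in saline replicates 1 to 3 and 24.4%, 11.6% and 15.7% in rhTM replicates 1 to 3. The highest lung was again rhTM replicate 1, while rhTM replicate 2 lay within the saline range, and the groups overlapped. The log2 difference was 0.39 (SE 0.29, 95% confidence interval -0.30 to 1.08, limma adjusted p = 0.9999), with p = 0.40 by the exact permutation test. Without rhTM replicate 1 it was 0.10, and it was 0.55 on slide 1 and 0.06 on slide 2. Under the table's columns every rhTM lung lay above every saline lung, at 15.1% to 24.7% against 10.4% to 12.96%, with a log2 difference of 0.62 (SE 0.21, limma adjusted p = 0.319) and the smallest p of the exact test, 0.10. The unadjusted p by limma was 0.0239, and 14.2% of all genes in the table had one under 0.05. Of all genes, 8.56% had all rhTM values above all saline values in the table and 2.95% in the scanner output. With slide as a block in the table the Slc4a1 difference rose to 1.08. Its size there rests on rhTM replicate 1, the highest lung, because the table sets the other rhTM lungs on slide 2 without a saline lung.

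**Figure D1:**
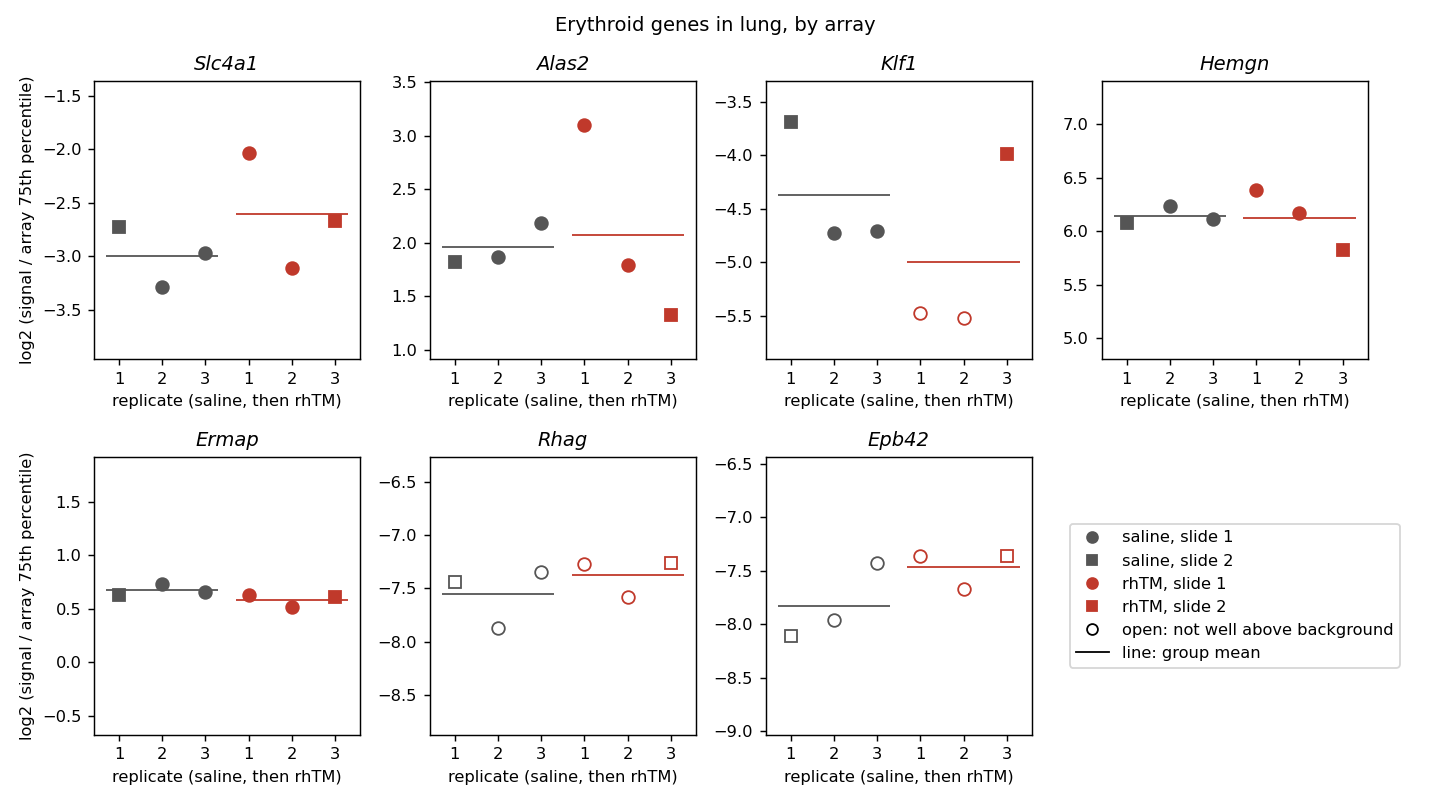
Signal of the 7 genes with a matched probe on each array, on a log2 axis as the signal over the array's 75th percentile, with replicates 1 to 3 of saline in grey and of rhTM in red. Squares are the arrays of slide 2, open symbols are values not well above background and lines are group means. Alas2 and Slc4a1 are highest on rhTM replicate 1, and Rhag and Epb42 are at background on all 6 arrays.

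Hemgn was among the steadier genes of the set. Its level was 67.4, 75.5 and 69.3 times the 75th percentile in saline replicates 1 to 3 and 83.3, 71.98 and 56.8 times in rhTM replicates 1 to 3. As for Alas2, the rhTM group held the highest and the lowest lung. The log2 difference was -0.02 (SE 0.17, 95% confidence interval -0.41 to 0.38, limma adjusted p = 0.9999), with p = 1 by the exact permutation test, and it was -0.10 by the table. The second Hemgn probe was not above background on any array, so the probes of this gene disagree, and the level rests on 1 of the 2 probes.

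Ermap varied least of the 5. Its level was 1.54, 1.65 and 1.58 times the 75th percentile in saline replicates 1 to 3 and 1.54, 1.43 and 1.52 times in rhTM replicates 1 to 3. Every rhTM value lay below every saline value, but the lowest saline lung and the highest rhTM lung, replicate 1 of each, were equal to 4 digits. Ermap was the only 1 of the 5 genes whose groups did not overlap downwards, beside 2.57% of all genes, and none did so upwards, beside 2.95%. The log2 difference was -0.09 (SE 0.11, 95% confidence interval -0.35 to 0.17, limma adjusted p = 0.9999), with p = 0.10 by the exact permutation test, the smallest it can give. By the table the groups overlapped and the difference was -0.03. The second Ermap probe was not above background on any array.

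Klf1, the regulator, lay near the floor of detection. Its level was 7.77%, 3.77% and 3.84% of the 75th percentile in saline replicates 1 to 3 and 2.25%, 2.18% and 6.31% in rhTM replicates 1 to 3. It was well above background on all 3 saline arrays but on only 1 rhTM array, replicate 3, and it entered the test through the saline group alone. The log2 difference was -0.62 (SE 0.48, 95% confidence interval -1.77 to 0.52, limma adjusted p = 0.9999), with p = 0.30 by the exact permutation test. It was -0.10 after normexp background correction, -0.28 without saline replicate 1 and -0.01 without the 2 exchanged arrays.

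The 2 brightest Klf1 values were the 2 arrays of slide 2, saline replicate 1 and rhTM replicate 3. The mean over slide 2 was 1.27 log2 units above that over slide 1, and the difference between the groups was -0.78 on slide 1 and -0.30 on slide 2. With slide as a block the difference stayed at -0.62, with a smaller error (SE 0.13, limma adjusted p = 0.920). Under the table's columns slide 2 holds rhTM replicates 2 and 3, Klf1 was well above background on 2 of 3 arrays in each group, and it was not tested. The second Klf1 probe was not above background on any array.

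Rhag and Epb42 were not detected. The Rhag probe gave processed signals of 3.97, 3.50 and 4.93 in saline replicates 1 to 3 and 4.77, 4.43 and 4.40 in rhTM replicates 1 to 3. The Epb42 probe gave 2.496, 3.29 and 4.66 in saline and 4.47, 4.18 and 4.10 in rhTM replicates 1 to 3. None of these 12 values was well above background, and no fold change is given. Kel, which encodes the Kell blood group antigen of the red cell membrane, was at background on all 6 arrays too.

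**Figure D2:**
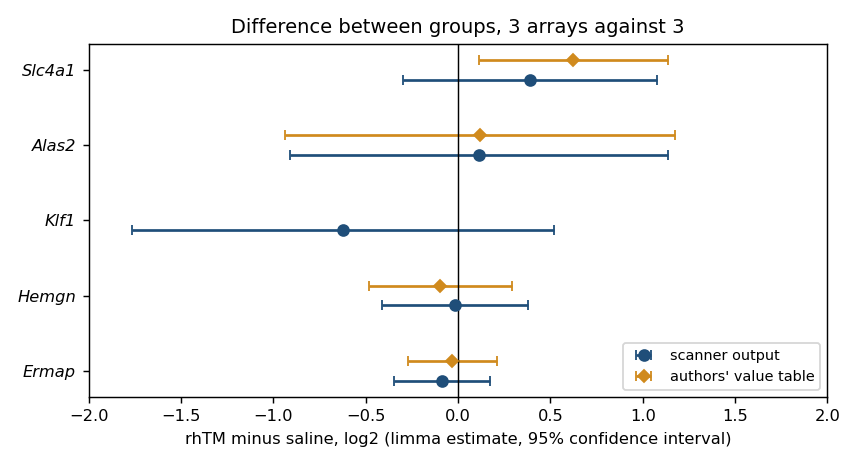
Difference between rhTM-treated and saline-treated lungs in log2 units for the 5 genes tested, with the limma estimate as a point and its 95% confidence interval as a bar. Circles are from the scanner output and diamonds from the authors' value table, in which Klf1 was not tested. All 5 scanner intervals include 0, and the Slc4a1 interval of the table does not, before adjustment over all genes.

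The 5 genes did not move together over the lungs. Pearson's r over the 6 arrays was 0.838 between Alas2 and Hemgn and 0.639 between Alas2 and Slc4a1, but -0.596 between Alas2 and Klf1 and -0.724 between Hemgn and Klf1. The other 6 pairs lay between -0.146 and 0.282. These values describe 6 arrays that share 2 slides, the labelling and the scaling, and they carry no test. The Alas2 and Hemgn values rest largely on rhTM replicates 1 and 3, the highest and lowest lung for both genes.

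The beta-globin probes followed Alas2. Hbb-b1 stood at 16.6, 15.6 and 19.2 times the 75th percentile in saline replicates 1 to 3 and at 35.1, 14.9 and 10.0 times in rhTM replicates 1 to 3. Hbb-b2 stood at 55.0, 46.2 and 64.1 times in saline and at 111, 51.6 and 41.5 times in rhTM replicates 1 to 3. Hbb-bt stood at 133, 105 and 145 times in saline and at 260, 127 and 98.2 times in rhTM replicates 1 to 3. All 3 were highest on rhTM replicate 1 and lowest on rhTM replicate 3, as Alas2 was, and Pearson's r with Alas2 over the 6 arrays was 0.992 for Hbb-b1, 0.976 for Hbb-b2 and 0.959 for Hbb-bt. The beta-globin genes are near-identical copies, so a probe's signal cannot be given to 1 of them, and the 3 r values are not separate readings. Hbb-bs had no matched probe.

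The alpha-globin probes disagreed. The brightest Hba-a1 probe stood at 646, 492 and 501 times the 75th percentile in saline replicates 1 to 3 and at 606, 468 and 576 times in rhTM replicates 1 to 3. Hba-a2 stood at 611, 480 and 482 times in saline and at 556, 434 and 551 times in rhTM replicates 1 to 3. Both were highest on saline replicate 1 and lowest on rhTM replicate 2, and Pearson's r with Alas2 was 0.204 and 0.110. The second Hba-a1 probe, at 276, 245 and 287 times in saline and 386, 236 and 223 times in rhTM replicates 1 to 3, was highest and lowest where the beta-globin probes were. The 2 brightest probes were on average 0.25 (Hba-a1) and 0.26 (Hba-a2) log2 units higher on slide 2 than on slide 1, and no spot of these globin probes carried the scanner's saturation flag. Before scaling, the brightest Hba-a1 probe read 444420 and 389160 on slide 2 and 397430 to 446560 on slide 1. Hba-a2 read 420600 and 372200 on slide 2 and 368840 to 409860 on slide 1. The 75th percentile itself was 688 and 675 on slide 2 and 737 to 850 on slide 1. The part of the slide, and of the scaling, in these probes was not tested.

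**Figure D3:**
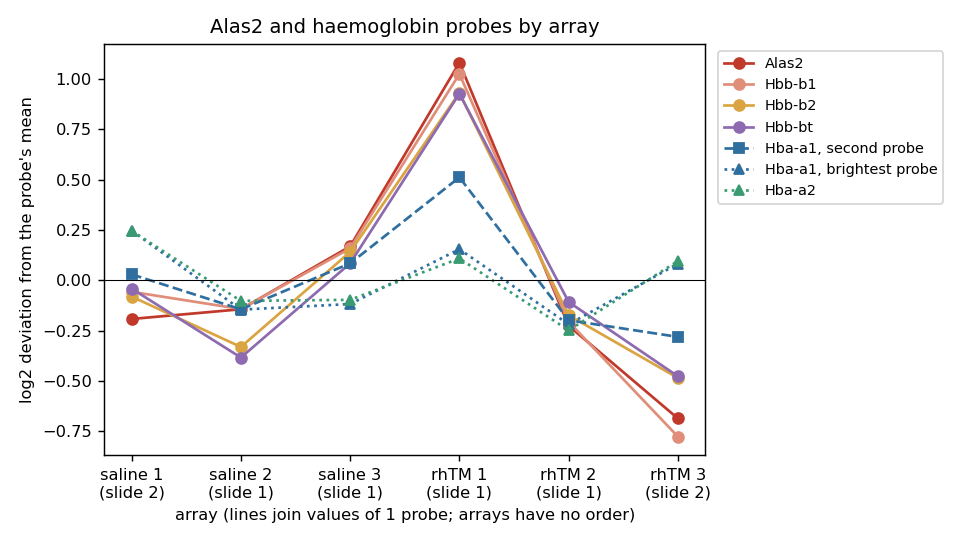
Log2 deviation of Alas2 and of the globin probes from each probe's own mean over the 6 arrays, with the slide under each array. The solid lines (Alas2, Hbb-b1, Hbb-b2, Hbb-bt) and the dashed second Hba-a1 probe peak on rhTM replicate 1 and are lowest on rhTM replicate 3, while the dotted brightest Hba-a1 probe and Hba-a2 peak on saline replicate 1.

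Between the groups no globin passed the test. The beta-globin probes may read the same RNA, so the genes counted here are not all separate readings. Of the 6 haemoglobin genes tested 4 were higher and 2 lower in rhTM-treated lungs, 0 passed the limma threshold, and the median log2 difference was 0.02. It ran from -0.25 (SE 0.20) for Hbb-bh1, an embryonic gene, to 0.23 (SE 0.36) for Hbb-bt. By the table all 6 were higher, 0 passed, and the median was 0.27. Of the embryonic genes Hba-x stayed at background on all 6 arrays, and Hbb-y rose above it on rhTM replicate 1 alone.

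Heme synthesis and iron uptake held 15 genes, all of them well above background on all 6 arrays. Of these 8 were higher and 7 lower, 0 passed the limma threshold, and the median log2 difference was 0.00, or -0.15 by the table, where 4 were higher and 11 lower. The 2 with the smallest unadjusted p were Fam210b, a mitochondrial gene of erythroid heme synthesis, at 0.24 (SE 0.15), or close to 0 by the table, and Tfrc, the transferrin receptor, at -0.25 (SE 0.17). The genes of this list did not all share the Alas2 pattern, with r above 0 for 9 of the 15 and below 0 for 6. Which cells of the lung gave the signals of this and the other lists was not tested. Fech, the ferrochelatase of the last step, and Slc25a37, the mitochondrial iron carrier mitoferrin, were highest on rhTM replicate 1, whereas Uros, Cpox and Tfrc were lowest there. Their Pearson's r with Alas2 was 0.938, 0.783, -0.918, -0.873 and -0.797, in that order.

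Membrane and skeleton genes beyond the set had 13 of 18 tested, with 5 higher and 8 lower, 0 called by limma and a median of -0.07, or 0.12 by the table, where 9 were higher and 3 lower. Sptb, erythroid beta-spectrin, was the only 1 of the 13 with every rhTM value below every saline value, beside 2.57% of all genes. Its log2 difference was -0.48 (SE 0.19, limma adjusted p = 0.9999), or -0.33 by the table. Sptb was well above background on all 3 saline arrays and 1 rhTM array, so it too entered the test through the saline group. Add2, another of the lower genes, entered in the same way. Slc2a1, the glucose carrier GLUT1, stood at 0.42 (SE 0.21), with its highest value on rhTM replicate 1. Slc14a1, the urea transporter of red cells, reached 7.92% of the 75th percentile on rhTM replicate 1 and lay between 2.32% and 3.41% on the other arrays. It was not well above background on rhTM replicate 3, so it also entered the test through the saline group alone. Its r with Alas2 was 0.965, the highest of the 13, and rests largely on rhTM replicate 1 against dim values. Gypc, the membrane protein glycophorin C, and Dmtn, the actin-bundling dematin, ran the other way, with an r with Alas2 of -0.862 and -0.854 and their lowest values on rhTM replicate 1. Over the 13 genes r with Alas2 was above 0 for 6 and below 0 for 7, and 4 were highest and 4 lowest on rhTM replicate 1.

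Erythroid regulators had 12 of 14 tested, with 4 higher and 8 lower, 0 called by limma and a median of -0.04, or -0.19 by the table, where 2 were higher and 10 lower. Tal1, a partner of GATA1, was the only 1 of the 12 with every rhTM value above every saline value, beside 2.95% of all genes. Its log2 difference was only 0.13 (SE 0.11), and by the table it was -0.01. Cbfa2t3, a corepressor of the same complex, stood at -0.14 (SE 0.17). Gfi1b, a repressor of red cell and platelet precursors, and Nfe2, a factor of both lineages, were highest on rhTM replicate 1 and lowest on rhTM replicate 3, and their r with Hemgn was 0.994 and 0.965, the highest of the 12. Cbfa2t3 ran the other way, lowest on rhTM replicate 1, with an r of -0.658 with Hemgn and -0.913 with Alas2. Bcl11a and Zbtb7a, repressors of globin genes, were also lowest on rhTM replicate 1, whereas 5 of the 12 were highest there, and r with Alas2 was above 0 for 6 and below 0 for 6. Gata1 was highest on saline replicate 2, and its r with Alas2 was -0.279.

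Reticulocyte and red cell enzymes had 14 of 15 tested, with 9 higher and 5 lower, 0 called by limma and a median of 0.03 by either source. Isg20, an exonuclease, stood at 0.18 (SE 0.15), with its highest value on rhTM replicate 1. Bpgm, the bisphosphoglycerate mutase of red cells, and Bnip3l, which clears mitochondria from reticulocytes, were highest on rhTM replicate 1, with an r with Alas2 of 0.967 and 0.898, the highest of the 14. Car2, a carbonic anhydrase, was lowest there, with an r of -0.657, and r with Alas2 was above 0 for 10 of the 14 and below 0 for 4. Genes named here only for their r or their extreme lung were chosen after their values were seen.

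**Figure D4:**
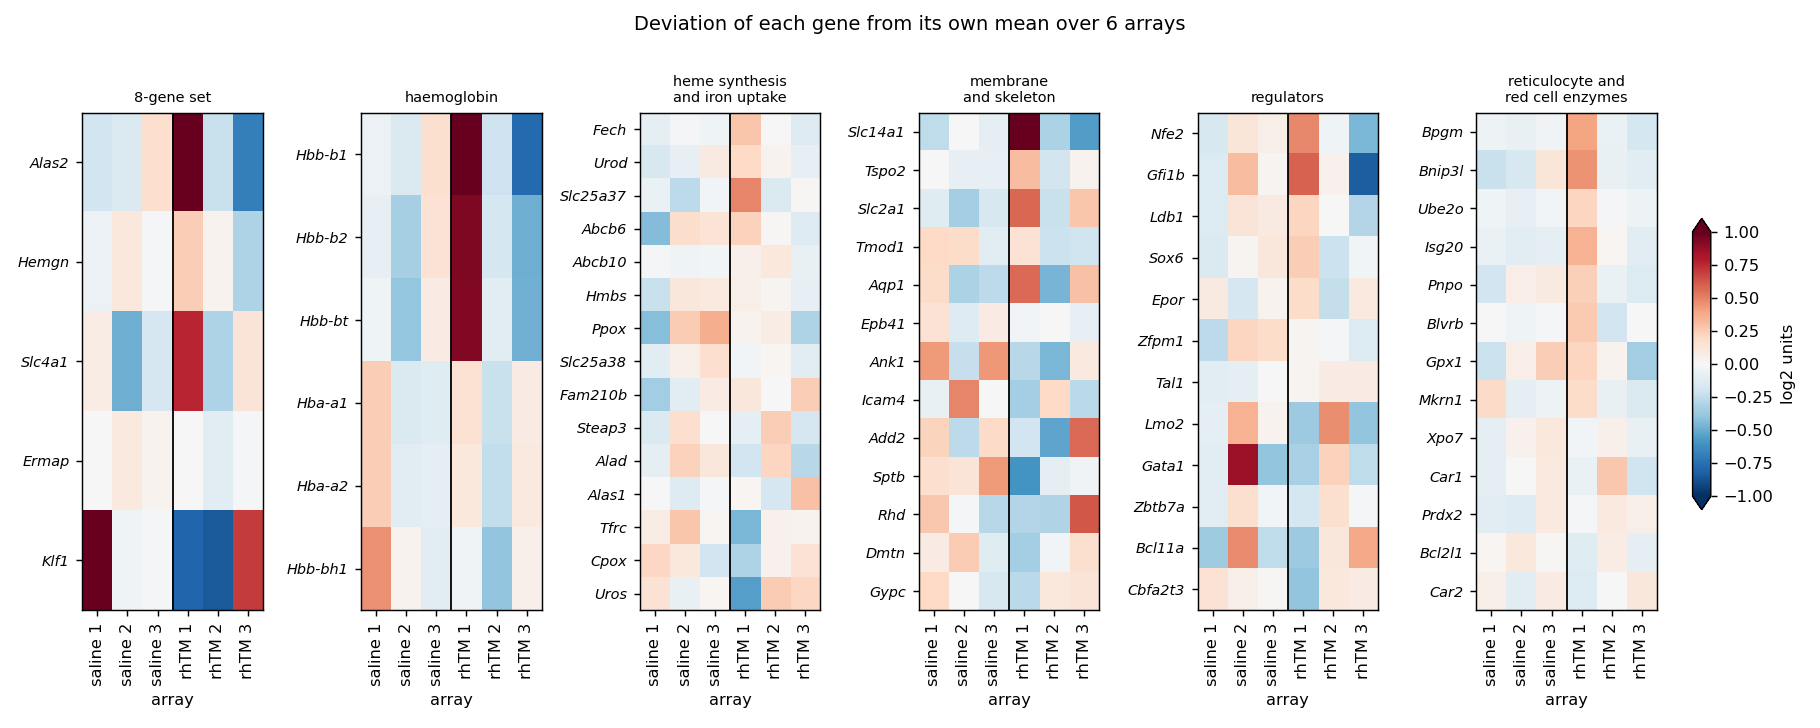
Log2 deviation of the erythroid genes tested, all but 1, from each gene's own mean over the 6 arrays, red above and blue below, with colours capped at 1 log2 unit. Columns are arrays, panels are gene lists, and genes are ordered by Pearson's r with Alas2 from the top. The column of rhTM replicate 1 holds genes above and genes below their mean in every panel. In the panel of the set the only gene below is Klf1, not well above background there. In the haemoglobin panel it is Hbb-bh1, at -0.03.

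Counted by lung, rhTM replicate 1 was the highest array for 3 of the 5 genes of the set (Alas2, Slc4a1 and Hemgn) and for 29.8% of all genes tested, more than any other array. It was the lowest for none of the 5 and for 26.6% of all genes. Of the other erythroid lists it was highest for 3 of 6 haemoglobin genes, 4 of 15 heme and iron genes, 4 of 13 membrane genes, 5 of 12 regulators and 6 of 14 enzymes, and lowest for 0, 3, 4, 3 and 2 of them, in that order. The array stood apart over all genes, with 7.10% of all genes at least 0.5 log2 units above and 8.68% at least 0.5 below their own mean, against at most 5.52% and 5.30% on the other arrays. Alas2 was 1.08 and Slc4a1 0.76 log2 units above its own mean there, while Klf1, not well above background on that array, stood at -0.79.

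Markers of other blood cells differed on the same array, in both directions. The summed level of 12 platelet markers was 47.9 times the 75th percentile on rhTM replicate 1, 37.6 on rhTM replicate 2 and 32.4 on rhTM replicate 3, and 26.6 to 38.6 on the saline arrays. Of the 12, 6 were highest on rhTM replicate 1 and the other 6 on saline replicate 2, 6 were lowest on rhTM replicate 3 and 2 on rhTM replicate 1, and 10 were above background on every array. The 8 neutrophil markers summed to 1660 times on rhTM replicate 1 and to 1336 to 1633 on the others, with 4 of 8 highest there, and the 8 granulocyte precursor markers to 347 against 267 to 289. The 10 genes of cell division summed to 5.39 times there against 6.28 to 8.45, with 8 of 10 lowest on rhTM replicate 1. Of the macrophage markers 4 of 7 were lowest and 1 highest there, of the T cell markers 1 of 6 was highest and 0 lowest, and of the B cell markers 1 of 5 was highest and 2 lowest. The part of these cells in the erythroid values was not tested.

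By group, 0 genes of any of these lists passed the limma threshold. Platelet markers had 4 of 12 higher and 8 lower, with a median of -0.19, Tubb1 at -0.57 (SE 0.16) and Gp1ba at -0.65 (SE 0.39), both well above background on 3 saline arrays but 1 rhTM array and so tested through the saline group alone. Neutrophil markers had 6 of 8 higher (Lcn2 at 0.14 and Mmp8 at 0.15), granulocyte precursors 5 of 8 (Camp at 0.49 and Prtn3 at -0.19), T cell markers 2 of 6 (Cd3d at 0.24 and Cd8a at -0.23) and B cell markers 4 of 5 (Cd79a at -0.15). Macrophage markers had 3 of 7 higher (Csf1r at -0.25 and Adgre1 at -0.23), lung-defining markers 5 of 11 (Pecam1 at -0.42 and Ager at -0.17) and cell division genes 1 of 10 (Top2a at -0.34 and Plk1 at -0.27). By the table the medians of these lists ran from -0.37 (B cell markers) to 0.15 (lung-defining markers), with platelet markers at -0.34.

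Outside the erythroid lists, the genes with the pattern most like the mean of the 5 genes were ranked by Pearson's r over the 6 arrays, among 1449 genes with an SD of at least 0.5 log2 units. The first 10 were Gm31080 at 0.969, Asb2 at 0.963, Defb1 at 0.925, Plppr5 at 0.920, Cidea at 0.917, Art1 at 0.897, Gfra1 at 0.896, Gm15056 at 0.893, Xrra1 at 0.891 and Aldh1a3 at 0.890. With 6 points, r values of this size among 1449 genes are a ranking and not a finding.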

How the data were processed

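Lung RNA of 6 mice was measured on 1-colour Agilent SurePrint arrays, with each mouse on its own array. Scanner output was deposited by the authors (Feature Extraction 10.7.3.1 by the file headers, 9.1 by the submitters' processing notes), and its processed signal is a background-corrected intensity on a linear scale, as are the values of a table averaged over spots. No build is given in the sources used here.

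Starting from these deposited intensity values, controls were removed, spots of a probe were averaged, and 398 of 56605 probes with outlier flags were dropped. Log2 signals were scaled by each array's 75th percentile. Accessions of 32994 probes matched a RefSeq gene table (GRCm38.p6). Genes below background on some array in both groups were not tested. limma 3.58.1 in R 4.3.3 compared the groups (lmFit and eBayes, Benjamini-Hochberg over all genes, threshold 0.05), which was tested on simulated data. Confidence intervals used limma's 6.76 total degrees of freedom. The methods' thresholds were a fold of 2 or 0.5 and p of 0.01.

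The genes and lists were chosen with earlier results of these data known. Named genes were all 8 genes of the set, the 2 genes of each other list with the smallest p, every haemoglobin gene with a probe, and the 10 genes in no list whose pattern was most like the set's, among genes with an SD of at least 0.5; some of these are not reported here. Alternatives covered background correction, normalization, the authors' table, filters, outlier spots, slide and replicate as blocks, probe choice, the methods' t-test, and each array left out. The number of arrays limits the precision, as do the slides, signals near background and the unsettled columns of the table. The study states different RNA kits in its labels and its methods.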

Additional observations from a re-analysis of the deposited data

How the results depend on the processing

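The authors' table with slide as a block, the same table without rhTM replicate 1, and the scanner values less both exchanged arrays were alternatives chosen after seeing the data. The count of genes past the limma adjusted p of 0.05, 0 in the report, was 0 to 3 over the scanner fits without 1 array (3 without saline replicate 1, 2 without rhTM replicate 1), 1 without both exchanged arrays, 373 in the table with slide as a block and 648 in the table without rhTM replicate 1. In that last fit both rhTM arrays lie on slide 2 and all saline arrays on slide 1, so treatment and slide cannot be told apart in any of its values. The count past the methods' fold and p thresholds was 6, and it was 0 with normexp, 60 by the table (0.367% of its genes), 37 with no filter, 3 with probes above background on all 6 arrays, 1 by the methods' t-test, 122 without both exchanged arrays, 579 in the table with slide as a block, and 10 to 93 without 1 array (381 in the table without rhTM replicate 1).

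For single genes, the Alas2 difference was -0.40 to 0.48 without 1 array, and it turned negative without rhTM replicate 1 in the scanner output (-0.40) and in the table (-0.40), while the table with slide as a block gave 1.15 (limma adjusted p = 0.0675). Hemgn ran from -0.14 to 0.13 (-0.25 in the table without rhTM replicate 1), turned positive without saline replicate 2 (0.03) or rhTM replicate 3 (0.13) and was 0.20 in the table with slide as a block. Slc4a1 ran from 0.10 to 0.64, was 0.77 without both exchanged arrays, and in the table with slide as a block it was 1.08 (limma adjusted p = 0.0415). The block fit compares rhTM replicate 1 with the saline arrays, since the table puts no other rhTM array on their slide. Klf1 ran from -1.13 to -0.28, fell close to 0 without both exchanged arrays (-0.01), was 1.12 in the table without rhTM replicate 1, and has no value in the table with all arrays or with slide as a block or under the filter on all 6 arrays. Normexp brought it to -0.10. Ermap was negative throughout.

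Among the other erythroid lists, 2 of 59 genes were called in the table with slide as a block, Slc14a1 (1.35) and Aqp1 (0.91), beside 2.28% of all genes, and 1 of 61 in the table without rhTM replicate 1, Trim58, beside 3.88%. Trim58 was at background in all 3 saline columns of that fit, and no fold is given. List medians moved in the table to 0.12 for membrane genes, -0.19 for regulators and -0.15 for heme and iron genes, and without rhTM replicate 1 in it to 0.11, -0.18 and -0.12. Without both exchanged arrays regulators were at -0.16 and heme and iron genes at -0.10. In the table with slide as a block haemoglobin was at 0.69 and the enzymes at 0.23. Without 1 array, medians of the scanner output ran from -0.13 to -0.01 (membrane), -0.10 to 0.01 (regulators), -0.01 to 0.05 (heme and iron), -0.21 to 0.20 (haemoglobin, lowest without rhTM replicate 1) and -0.02 to 0.10 (enzymes, likewise).

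The replicate numbers do not pair the mice: deviations of same-numbered arrays correlated at -0.300, 0.439 and -0.447. With the replicate number as a block, 10 genes passed the methods' thresholds, 0 passed the adjusted p, and no call of a gene of the set changed.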

Other observations

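Some erythroid genes near the floor of detection were above background on particular arrays only. Trim58, a ubiquitin ligase of late erythroblasts, was well above background on saline replicate 1 and rhTM replicate 3, the arrays of slide 2, at processed signals of 24.1 and 24.3, and gave 3.54 to 5.08 on the other arrays. Xk, the carrier of the Kx antigen, was so on saline replicate 1 (21.6) and rhTM replicate 1 (25.3). Trim10, another erythroid ubiquitin ligase, was so on saline replicate 1 (31.4) alone, and Cldn13, a claudin of mouse erythroblasts, on saline replicate 2 (44.8) alone. Hbb-y, an embryonic beta-like globin, gave 61.1 on rhTM replicate 1 and 4.68 to 7.38 on the other arrays. With all 6 arrays of the scanner output these genes did not pass the filter and have no test.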
